A study of Mus musculus with 9 samples.

Results

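The endothelin, adrenomedullin and apelin systems were followed through 10 genes chosen by name: the peptides Edn1, Adm and Apln, the processing enzyme Ece1, the receptors Ednra, Ednrb, Calcrl and Aplnr, and the receptor partners Ramp2 and Ramp3. These are 10 of the 55487 genes in the count table, and were taken from a list of names rather than by a threshold on their values. RNA was sequenced from MCEC, a line of mouse cardiac endothelial cells, in 3 groups of 3 libraries. WT was the unmodified line, KD the same line with Zbtb46 knocked down, and OE the same line with Zbtb46 overexpressed. Zbtb46 encodes a zinc-finger transcription factor, and the groups ask what changes when its level is lowered or raised. The labels state neither the means of knockdown or overexpression nor whether each line is 1 clone, and they leave unsaid whether the 3 libraries of a group came from separate cultures. P-values therefore measure the spread between these libraries, which may be technical. No library from cells given a control vector was analysed here.

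All of these are peptide systems of the vessel wall. Endothelin is made by endothelial cells as a large precursor, cut to its active form by the endothelin-converting enzyme Ece1, and read mainly by smooth muscle through Ednra and by endothelium through Ednrb; it is among the strongest constrictors of vessels. Adrenomedullin relaxes vessels and tightens the endothelial barrier through the receptor Calcrl, which reaches the cell surface in complex with a Ramp protein; Ramp2 and Ramp3 make it an adrenomedullin receptor, and Ramp1 a receptor of calcitonin gene-related peptide. Apelin is secreted by sprouting endothelial tip cells and acts on its receptor Aplnr in angiogenesis. Adm and Apln are well-known targets of the hypoxia-inducible factors.

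Total counts ran from 39491828 to 55745849 per library. Zbtb46 itself was at 13.7 ± 0.623 CPM (normalised counts scaled to a common library total with TMM factors; mean ± SD, n = 3) in the WT libraries, 11.2 ± 0.537 in KD and 191 ± 2.67 in OE. The labelled direction was thus met in both lines, but the knockdown was shallow: 17.6% below WT (log2 fold change -0.28, SE 0.055, adjusted p = 0.00144 by edgeR's quasi-likelihood test), against a 14.0-fold rise in OE (adjusted p = 3.22e-21). Of 13 endothelial markers, 5 reached 1 CPM in a group, among them Flt1, and Emcn, Cldn5 and Erg had at most 3 counts in every library. Their summed level was 38.6 to 39.4 CPM in WT, 35.7 to 39.5 in KD and 27.6 to 32.7 in OE. The 5 that reached 1 CPM did not move together. Flt1 was at 17.2 CPM in WT, 12.1 in KD and 21.9 in OE, and Ptprb at 11.1, 19.6 and 3.09. Egfl7 was at 5.18, 2.99 and 2.49 CPM, Kdr at 2.64, 1.40 and 1.77, and Tek at 1.84, 1.41 and 0.459. Of 6 lymphatic endothelial markers, 2 reached 1 CPM, Flt4 at 116 CPM and Pdpn at 88.2 CPM in WT. The sums of that list were 202 to 208 CPM in WT, 202 to 210 in KD and 159 to 164 in OE. Its other genes, Prox1, Lyve1, Ccl21a and Reln, had at most 3 counts in every library. Of 7 fibroblast markers, 4 reached 1 CPM, and their sum, carried by Col1a1 and Col3a1, was 8094 to 8959 CPM in WT, 8042 to 8168 in KD and 5074 to 5186 in OE. Of 9 smooth muscle or pericyte markers 3 reached 1 CPM, with sums of 17.4 to 21.2 CPM in WT, 11.4 to 13.3 in KD and 9.49 to 10.4 in OE. Of 6 leukocyte markers 1 reached 1 CPM, Cd68 at 3.76 CPM in WT, 4.86 in KD and 3.40 in OE. Ptprc, Itgam and Adgre1 of that list had at most 3 counts in every library. Of 7 cardiomyocyte markers 1 reached 1 CPM, Tnnt2 at 0.590 CPM in WT, 0.737 in KD and 1.11 in OE. Myh6, Actn2 and Nppa had at most 3 counts in every library. The endothelial label of the line was thus borne out by few of its defining genes at the RNA level, and how these marker levels bear on the results below was not tested. In such bulk samples, fewer cells of a type and less RNA per cell cannot be told apart.

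The promoters of the 3 members that were higher in OE than in WT are shown first, with that of Edn1, the abundant peptide gene that passed in no comparison. Each run is the 250 bases before the transcription start, 5′ to 3′ on the gene's strand, from RefSeq's annotation of GRCm38.p6. Capitals mark the hypoxia response element core (ACGTG or GCGTG on either strand) and the GC box (GGGCGG on either strand). In the Adm promoter the GC box does not overlap either core.

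Adm, chr7:110627407-110627656, plus strand: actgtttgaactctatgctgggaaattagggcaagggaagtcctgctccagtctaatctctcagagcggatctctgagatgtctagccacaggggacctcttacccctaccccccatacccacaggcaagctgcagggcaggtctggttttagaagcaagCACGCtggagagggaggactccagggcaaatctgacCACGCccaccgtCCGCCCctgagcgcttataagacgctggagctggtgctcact

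Apln, chrX:48034854-48035103, minus strand: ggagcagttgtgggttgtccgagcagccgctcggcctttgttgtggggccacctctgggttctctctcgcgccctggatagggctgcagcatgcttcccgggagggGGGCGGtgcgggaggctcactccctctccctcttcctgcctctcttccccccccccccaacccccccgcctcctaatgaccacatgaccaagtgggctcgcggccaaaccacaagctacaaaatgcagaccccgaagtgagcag

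Calcrl, chr2:84425267-84425516, minus strand: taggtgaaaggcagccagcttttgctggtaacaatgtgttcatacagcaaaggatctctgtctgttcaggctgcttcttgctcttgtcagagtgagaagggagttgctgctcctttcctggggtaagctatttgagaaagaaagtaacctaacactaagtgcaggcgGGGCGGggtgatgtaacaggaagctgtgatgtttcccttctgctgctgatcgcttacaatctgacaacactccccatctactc

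Edn1, chr13:42301226-42301475, plus strand: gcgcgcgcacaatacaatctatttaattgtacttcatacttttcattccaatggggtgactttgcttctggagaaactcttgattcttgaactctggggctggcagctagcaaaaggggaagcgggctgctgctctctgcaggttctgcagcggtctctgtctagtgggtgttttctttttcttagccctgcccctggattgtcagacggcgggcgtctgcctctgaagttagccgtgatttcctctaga

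The Adm run held 2 cores, which begin 90 and 54 bases before the start, and a GC box at 42 bases. The runs of Apln and Calcrl held 0 cores and 1 GC box each, at 144 bases and at 83 bases before the start. The Edn1 run held 0 of either. Neither TATAAA, searched on both strands, nor the AP-1 site TGANTCA was found in these 4 runs. Of the 32851 promoter runs of this length in the table, 38.6% held a core, 32.7% a GC box, 12.4% TATAAA and 6.75% TGANTCA. A core by itself is thus common among promoters, and a match is a string of letters, not a measured binding site. Cores were also found in runs of members that were not called higher in OE against WT: 2 in Ramp3, 1 in Ednrb, which had 0 counts throughout, and 0 to 4 in the 4 annotated promoters of Ece1. RefSeq promoters were matched for 8 of the 10 genes, and not for Aplnr and Ramp2.

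Most of these genes were scarcely transcribed in MCEC. Per kilobase of exon, Ece1 stood at 38.1 ± 1.36 CPM and Edn1 at 18.3 ± 2.98 in WT (SD, n = 3), and the ranges of the libraries did not overlap. The other 8 genes averaged under 2 CPM in every group. In WT they followed at 0.125 ± 0.0845 CPM per kilobase for Ramp3, 0.100 ± 0.0538 for Apln, 0.0908 ± 0.0303 for Aplnr, 0.0844 ± 0.0480 for Adm, 0.0487 ± 0.0145 for Calcrl and 0.0296 ± 0.0366 for Ramp2. Each of these neighbours differed by less than the spread between libraries. The cells thus carried the RNA of the endothelin peptide and its enzyme, with only traces of the other peptides and of every receptor. In OE the order after Ece1 (35.6 ± 0.515) and Edn1 (20.6 ± 1.90) became Apln at 0.397 ± 0.0685 and Adm at 0.357 ± 0.158, then Ramp3 at 0.195 ± 0.0461, Calcrl at 0.168 ± 0.0759 and Aplnr at 0.0683 ± 0.0165 CPM per kilobase. Adm overlapped Apln, Ramp3 and Calcrl, and Ramp3 overlapped Calcrl, so the order among these was not resolved.

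**Figure D1:**
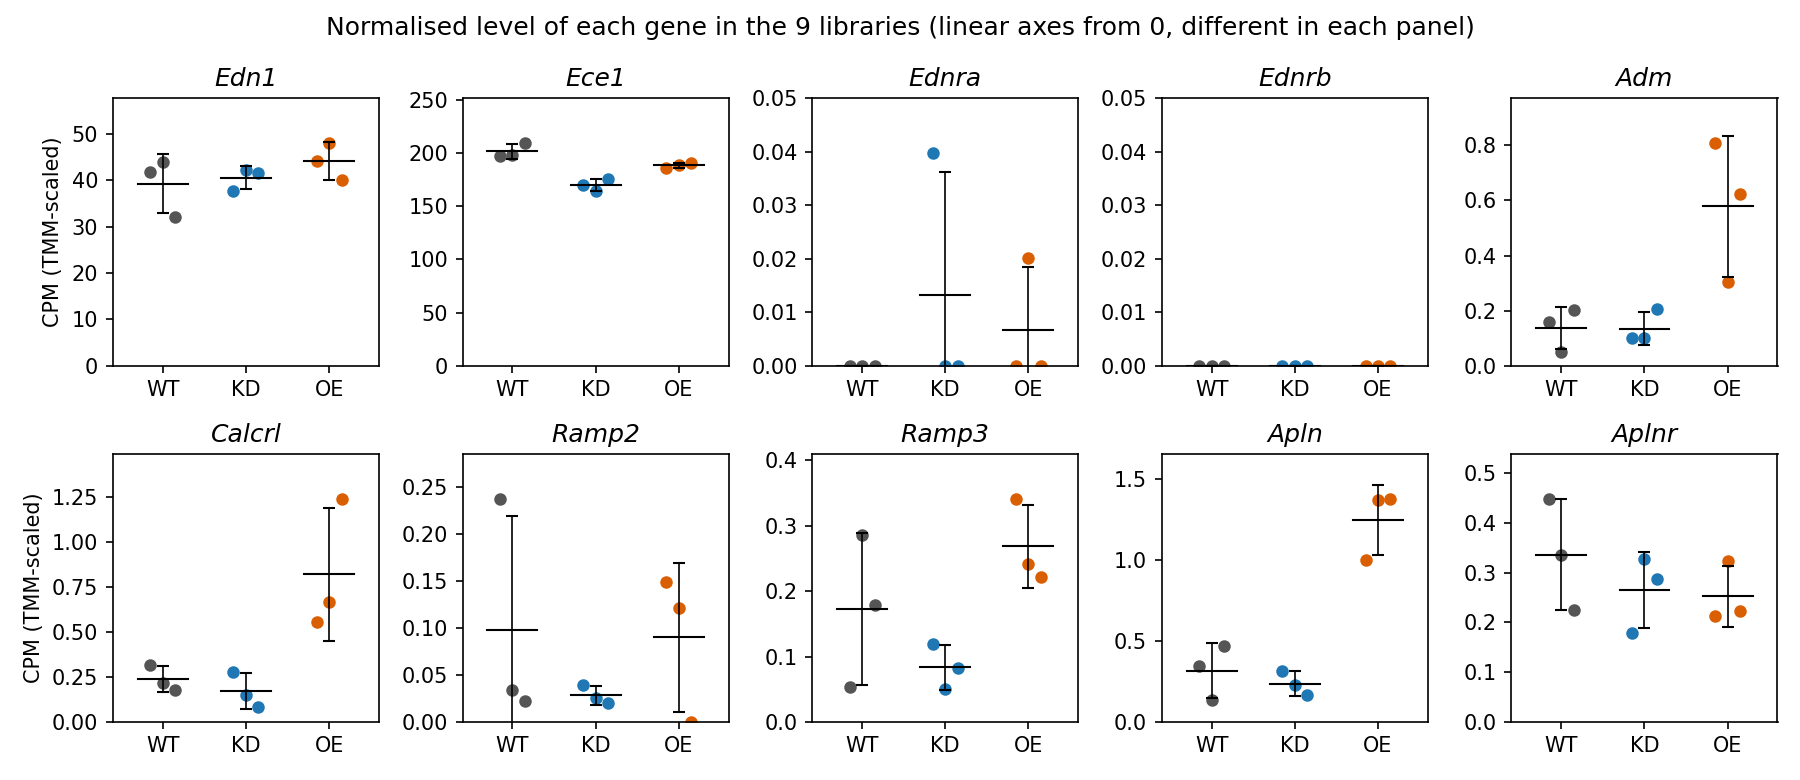
Level of each of the 10 genes in the 9 libraries, in CPM on linear axes that start at 0 and differ between panels; points are libraries, horizontal lines group means, bars SD (n = 3), cut off at 0 where they reach below it. Edn1 and Ece1 lie above 30 CPM in all libraries, Adm, Calcrl and Apln are highest in the 3 OE libraries, and Ednrb is at 0 throughout.

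Of the 10 genes, 7 were abundant enough to be tested. The filter kept genes above 0.210 CPM in at least 3 libraries, and Ednra, Ednrb and Ramp2 missed it. Adm passed through its 3 OE libraries alone, with 0 of 3 WT and 0 of 3 KD libraries above that level, so that it could enter the test only by being higher in OE. Ramp3 met the level in 1 WT, 0 KD and 3 OE libraries, Calcrl in 2, 1 and 3, and Apln in 2, 2 and 3. Without its OE libraries, Ramp3 would have missed the filter as well.

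In KD against WT, Ece1 was lower and none of the other 6 tested genes passed the threshold in either direction. Over all 16955 genes tested, 10.4% were lower and 11.0% higher in this comparison. In OE against WT, Adm, Calcrl and Apln were higher and 0 of 7 were lower, beside 17.0% higher and 19.5% lower over all genes. In OE against KD the same 3 genes and Ece1 were higher and 0 were lower, where 19.4% of all genes were higher and 22.1% lower. A test of any difference among the 3 groups called 4 of the 7 genes, beside 47.7% of all genes. Each of these counts with OE includes Adm, which passed the filter through its OE libraries alone. Its calls are therefore not independent of the filter. With 3 libraries a group, the smallest two-sided p of an exact permutation test is 0.1, and the calls therefore come from the edgeR model.

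**Figure D2:**
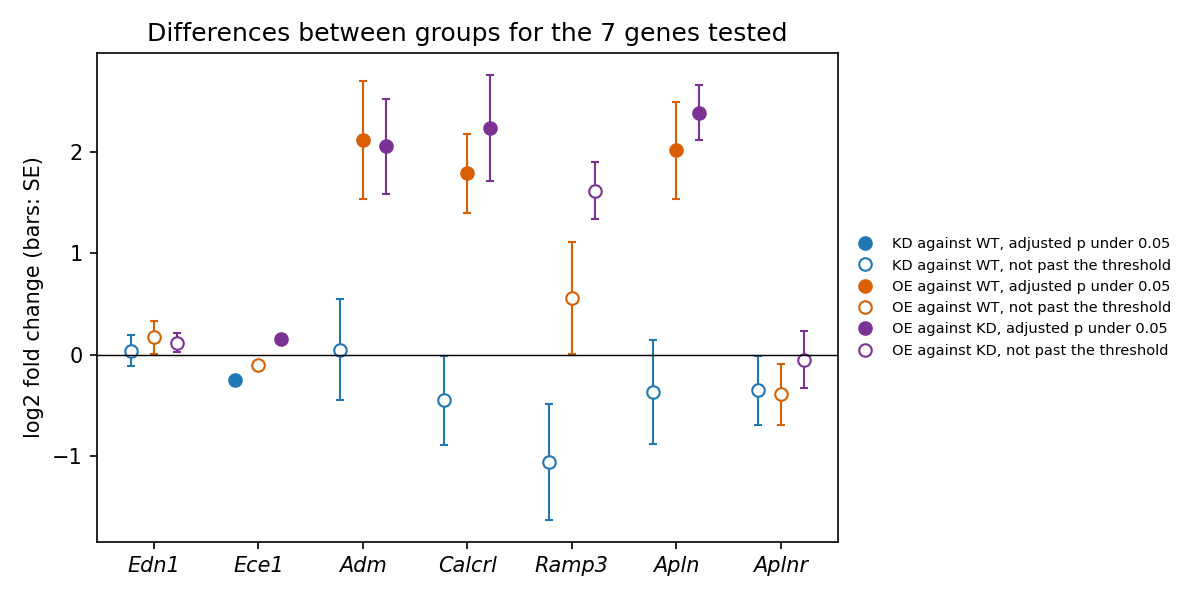
Log2 fold change of the 7 tested genes in the 3 comparisons, with bars for the SE from the spread of log2 CPM, not from the edgeR fit. Filled points have an adjusted p under 0.05. The OE points of Adm, Calcrl and Apln stand near 2, and those of Ece1 within 0.3 of 0.

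Edn1 (chromosome 13, 42301476 to 42307990, plus strand, GRCm38) was the most abundant of the peptides and passed the threshold in none of the 3 comparisons. It was at 41.7, 44.0 and 32.0 CPM in the WT libraries. KD gave 37.7, 42.3 and 41.6 CPM. OE gave 44.2, 48.1 and 40.0 CPM. The 3 groups overlapped, with the lowest value in a WT library and the highest in an OE library. The log2 fold change was 0.04 (SE 0.15, adjusted p = 0.837) in KD and 0.17 (SE 0.16, adjusted p = 0.261) in OE. The antisense gene Gm47118 overlaps Edn1. It has its own row in the table and was higher in OE (log2 fold change 0.87, adjusted p = 0.0288). Whether reads of the shared bases were split by strand is not given in the sources used here, so the values of such overlapping pairs are uncertain.

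Ece1 (chromosome 4, 137862237 to 137965229, plus strand), the membrane metalloprotease that releases active endothelin, was the most abundant of the 10 genes. WT libraries had 197, 198 and 210 CPM. KD libraries had 170, 164 and 176 CPM, all below WT. OE libraries had 186, 189 and 191 CPM, between the other groups with no overlap. Ece1 fell by 15.8% in KD against WT (log2 fold change -0.25, SE 0.042, adjusted p = 1.96e-04). In OE the value was -0.10 (SE 0.032) and did not pass (adjusted p = 0.0759), although the groups did not overlap. The difference of OE from KD was 0.15 (SE 0.032, adjusted p = 0.00674). Without the second KD library it was 0.12 with an adjusted p of 0.069, and without the second WT library Ece1 passed in OE against WT as well (-0.12, adjusted p = 0.028). Ece1 overlaps the antisense gene Gm13012.

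Ece1 lies in a region whose genes shifted together. In the 20 Mb window that holds it (chromosome 4, 120 to 140 Mb, 282 tested genes) the median log2 fold change was -0.18 in KD, 0.35 in OE and 0.49 in OE against KD. Within 2 Mb of its start, 19 of 59 tested genes were lower and 2 higher in KD (median -0.14), while in OE 33 were higher and 4 lower (median 0.29). After the window medians were removed, Ece1 lost its difference in KD (-0.07, adjusted p = 0.285 by limma). It was then lower in OE than in WT (-0.44, adjusted p = 4.80e-08), and OE against KD turned to -0.37 (adjusted p = 4.27e-07). The direction of Ece1 in OE against KD thus depended on whether its window was taken as the reference, while in OE against WT it was negative both ways.

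The nearest genes moved far more than Ece1. Eif4g3, a translation initiation factor that starts 131 kb downstream, had a log2 fold change of -6.26 in KD (adjusted p = 1.65e-16) and 1.62 in OE (adjusted p = 3.63e-12). Alpl, the tissue-nonspecific alkaline phosphatase, whose start lies 66 kb upstream, fell in both lines, with log2 fold changes of -1.64 in KD (adjusted p = 3.09e-06) and -1.21 in OE (adjusted p = 2.83e-05). Both genes were picked with their values known, for their place beside Ece1.

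**Figure D3:**
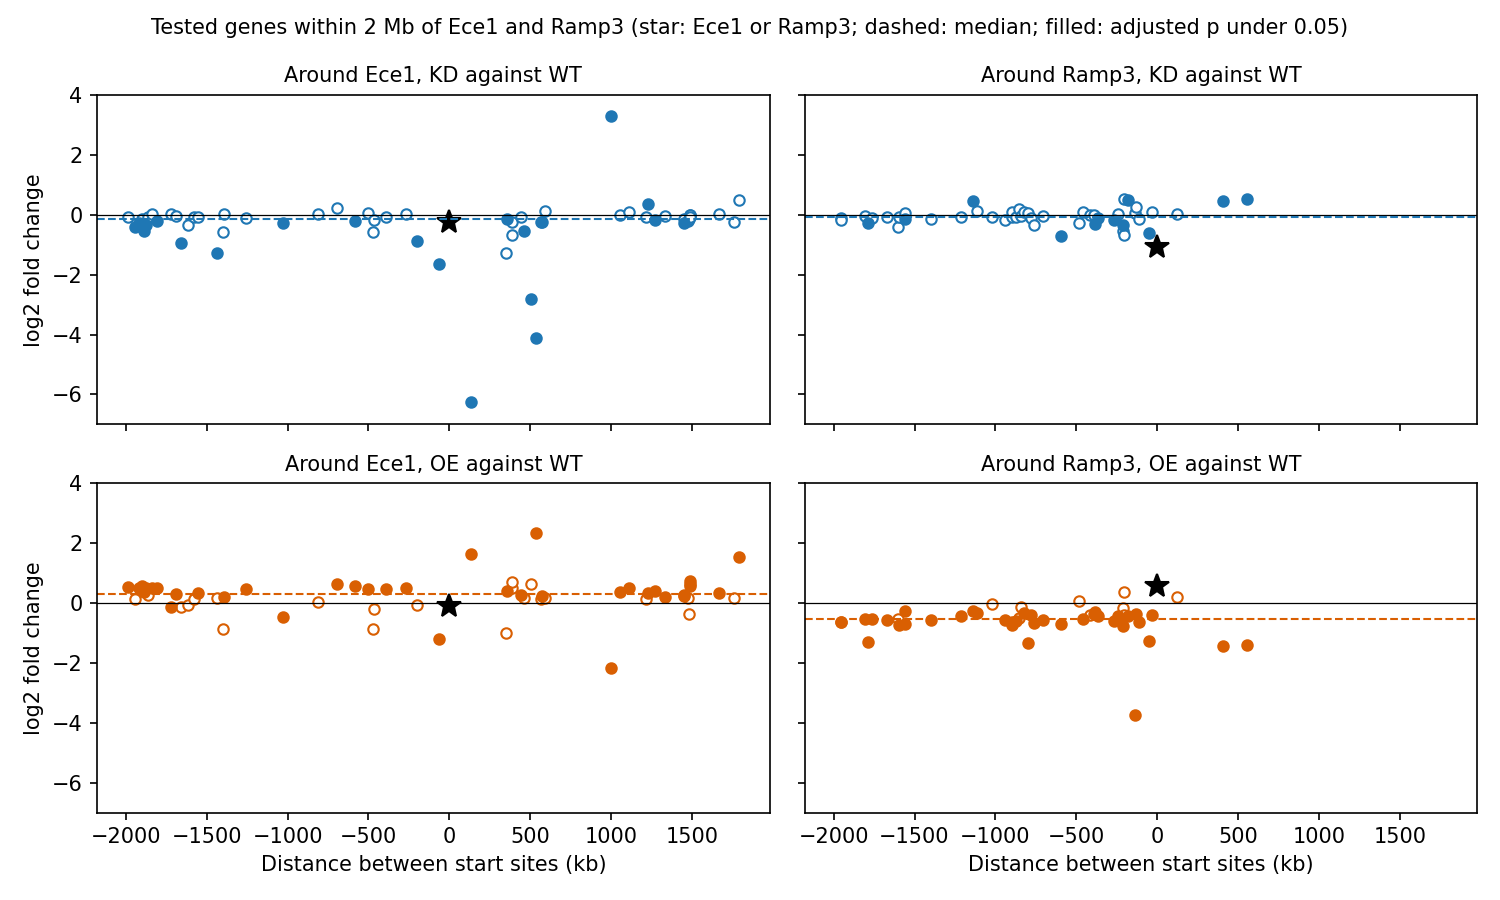
Log2 fold change of the tested genes within 2 Mb of Ece1 (left) and Ramp3 (right) against the distance of their start sites in kb, for KD (top) and OE (bottom) against WT; the star is Ece1 or Ramp3, the dashed line the neighbours' median, and filled points have an adjusted p under 0.05. Around Ece1 the OE median is 0.29 with the star below it; around Ramp3 it is -0.55 with the star above it.

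The endothelin receptors were close to absent from the counts. Ednra, the receptor of smooth muscle, had 2 counts in 1 KD library, 1 count in 1 OE library and 0 in the other 7. Ednrb, the usual endothelial endothelin receptor, had 0 counts in all 9 libraries. A count of 0 allows up to 3 counts, which is 0.0538 to 0.0760 CPM depending on the library's total, for counting error only. No difference in either receptor was detectable at this depth.

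Adm (chromosome 7, 110627661 to 110629820, plus strand), the adrenomedullin precursor, was 4.23-fold higher in OE than in WT, from a very low level. WT libraries had 6, 3 and 9 counts (0.158, 0.0504 and 0.201 CPM). KD libraries had 5, 4 and 10 counts (0.0993, 0.100 and 0.205 CPM), much as WT. OE libraries had 38, 15 and 28 counts (0.810, 0.303 and 0.622 CPM), each above every WT and KD library. The log2 fold change was 2.12 (SE 0.58, adjusted p = 0.00700) in OE and 0.05 (SE 0.50, adjusted p = 0.971) in KD, and OE exceeded KD by 2.06 (SE 0.47, adjusted p = 0.00672). With every gene of at least 1 count in the fit, the OE value was 2.10 (adjusted p = 0.00466). Without the first OE library the adjusted p rose to 0.056 against WT and 0.054 against KD. The antisense gene Gm28863 overlaps Adm.

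Calcrl (chromosome 2, 84330626 to 84425411, minus strand), the receptor that adrenomedullin shares with calcitonin gene-related peptide, was higher in OE too. WT libraries had 12, 13 and 8 counts (0.316, 0.218 and 0.179 CPM). KD libraries had 14, 6 and 4 counts (0.278, 0.151 and 0.0819 CPM). OE libraries had 26, 33 and 56 counts (0.554, 0.666 and 1.24 CPM), all above the others, with the third library at about the sum of the other OE pair. The OE level was 3.45-fold that of WT (log2 fold change 1.79, SE 0.39, adjusted p = 0.00550) and 4.83-fold that of KD (2.24, SE 0.52, adjusted p = 9.97e-04). In KD against WT the value was -0.45 (SE 0.44, adjusted p = 0.649). Without the third OE library, the difference of OE from WT was 1.37 and its adjusted p 0.065.

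Ramp2 and Ramp3, which pair with Calcrl as adrenomedullin receptors, gave no call in this fit. Ramp2, which forms the first adrenomedullin receptor with Calcrl, had 9, 2 and 1 counts in WT, 2, 1 and 1 in KD, and 7, 6 and 0 in OE, and was not tested; Vps25 overlaps it on the same strand. Ramp3, of the second adrenomedullin receptor, had 2, 17 and 8 counts in WT (0.0527, 0.286 and 0.179 CPM). KD gave 6, 2 and 4 counts (0.119, 0.0502 and 0.0819 CPM), and OE gave 16, 12 and 10 counts (0.341, 0.242 and 0.222 CPM). WT spanned nearly the whole range of the other groups, while each OE library lay above each KD library. OE exceeded KD by a log2 fold change of 1.62 (SE 0.28), which missed the threshold (adjusted p = 0.0551). The difference passed with upper-quartile factors (1.68, adjusted p = 0.0434) and with only these groups in the fit (1.61, adjusted p = 0.0359). It did not pass with every gene of at least 1 count in the fit (1.62, adjusted p = 0.148). With the replicate number as a block it did not pass either (1.61, adjusted p = 0.0769). Of the alternative settings, 17 gave no call and 3 did. Ramp3 needed its OE libraries to meet the filter, so its filtered values are not independent of that filter. Against WT, Ramp3 was at -1.06 in KD (SE 0.57, adjusted p = 0.314) and 0.56 in OE (SE 0.55, adjusted p = 0.509).

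Ramp3, too, lies in a shifted region. The window that holds it (chromosome 11, 0 to 20 Mb, 122 tested genes) had median log2 fold changes of -0.52 for OE against WT and -0.45 for OE against KD. Of 48 tested genes within 2 Mb, 38 were lower and 0 higher in OE than in WT. With window medians removed, Ramp3 in OE against KD was 1.78 and passed (adjusted p = 0.0110 by limma), which is 1 of the 3 settings that called it. The windows of Edn1, Adm, Calcrl, Apln and Aplnr had medians from -0.05 to 0.10 in the 3 comparisons, and Adm, Calcrl and Apln were called in OE after their removal as before it.

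Apln (chromosome X, 48025146 to 48034853, minus strand), the apelin precursor, gave the clearest rise of the 10 genes. WT libraries had 13, 8 and 21 counts (0.343, 0.134 and 0.470 CPM). KD libraries had 16, 9 and 8 counts (0.318, 0.226 and 0.164 CPM), within the WT range. OE libraries had 47, 68 and 62 counts (1.0, 1.37 and 1.38 CPM), each more than the highest WT library. The rise was 3.96-fold over WT (log2 fold change 2.02, SE 0.48, adjusted p = 5.17e-04) and 5.30-fold over KD (2.39, SE 0.27, adjusted p = 9.44e-05), and its call held in every fit in which Apln was tested. In KD the value was -0.37 (SE 0.51, adjusted p = 0.664). No other annotated gene overlaps Apln.

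Aplnr (chromosome 2, 85136225 to 85139923, plus strand), the G protein-coupled receptor of apelin, did not rise with its ligand. Its counts were 17, 20 and 10 in WT, 9, 13 and 14 in KD, and 10, 16 and 10 in OE. The groups overlapped throughout. The log2 fold change was -0.35 (SE 0.34, adjusted p = 0.701) in KD and -0.39 (SE 0.30, adjusted p = 0.595) in OE. With at most 20 counts in a library, only a large change of this receptor could have been detected.

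Edn2 and Adm2, peptides of the same families with more counts than Adm and Apln, also rose in OE. Of 7 such peptides 3 were tested. In OE against WT 2 were higher and 0 lower (median log2 fold change 0.96, against 0.002 over all genes). In KD 0 were higher and 1 lower (median -0.92, against -0.002). The shares over all genes were 17.0% higher and 19.5% lower in OE, and 11.0% higher and 10.4% lower in KD. Edn2, the second endothelin, was at 5.25, 3.50 and 3.67 CPM in WT, 2.38, 2.49 and 1.66 in KD, and 8.82, 9.95 and 7.36 in OE, with no overlap among the 3 groups. It fell in KD (log2 fold change -0.92, SE 0.26, adjusted p = 0.00144) and rose 2.11-fold in OE (1.09, SE 0.22, adjusted p = 4.34e-05). Adm2, or intermedin, which also signals through Calcrl, was at 3.90, 3.34 and 5.35 CPM in WT, 3.20, 3.59 and 3.44 in KD, and 8.33, 7.61 and 8.45 in OE. It rose 1.94-fold in OE (0.96, SE 0.20, adjusted p = 2.94e-05), while KD overlapped WT (-0.30, adjusted p = 0.211). Edn3, Calca, Iapp and Apela were too low to test.

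The enzymes that mature or clear these peptides moved mostly the other way in OE. Of 11 genes 8 were tested. In OE 6 were lower and 1 higher (median -0.50), while in KD 2 were higher and 1 lower (median 0.00). Over all genes tested, 19.5% were lower and 17.0% higher in OE, and 11.0% were higher and 10.4% lower in KD. The 4 proprotein convertases tested, which cut peptide precursors, fell in OE: Pcsk5 from 45.0 ± 1.30 to 21.6 ± 1.25 CPM (log2 fold change -1.06, adjusted p = 1.21e-11), Pcsk6 from 8.93 ± 0.711 to 5.10 ± 0.0651 (-0.81, adjusted p = 2.66e-06), Pcsk7 by 0.58 and Furin by 0.38 on the log2 scale (adjusted p = 7.70e-08 and 1.62e-06). Pam, which amidates adrenomedullin, fell by 0.42 (adjusted p = 3.50e-06). Mme, or neprilysin, which degrades many vasoactive peptides, rose in both lines, from 5.78 ± 1.07 CPM to 10.3 ± 0.457 in KD (adjusted p = 3.39e-05) and 8.97 ± 0.336 in OE (adjusted p = 2.81e-04). In KD, Pcsk6 was higher (0.46, adjusted p = 0.00179) and Furin lower (-0.28, adjusted p = 1.73e-04).

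Of 5 other receptors and partners 3 were tested. In KD 0 differed, and in OE 2 were lower and 1 higher (median -1.10). Among all genes 19.5% were lower and 17.0% higher in OE. Ackr3, an atypical receptor that binds adrenomedullin and CXCL12, fell from 1.89 ± 0.311 to 0.323 ± 0.0718 CPM in OE (log2 fold change -2.54, adjusted p = 3.69e-07). Ramp1, which turns Calcrl into the receptor of calcitonin gene-related peptide, fell from 4.64 ± 0.964 to 2.17 ± 0.0999 CPM (-1.10, adjusted p = 2.10e-05). Crcp, a protein tied to coupling of that receptor, was higher by 0.18 (adjusted p = 0.0302), a call that was lost when any 1 of 5 libraries was left out. With a minimum change of 1.5-fold, 2 of this list stayed lower in OE and 2 of the enzymes did.

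In the shared signalling list of G proteins, phospholipases, kinases and arrestins, 22 of 27 genes were tested. In KD 3 were higher and 5 lower, and in OE 4 were higher and 8 lower, with medians of 0.02 and -0.08. Rgs3, which shortens G protein signals, was lower in KD (-0.73, adjusted p = 0.00135) and in OE (-0.90, adjusted p = 6.95e-05). Grk5, a kinase that desensitises receptors, was at 41.0 CPM in WT and 22.8 ± 1.54 in OE (-0.85, adjusted p = 1.38e-09). Plcb4, a phospholipase downstream of Gq, was higher in KD (0.45, adjusted p = 0.00166) and lower in OE (-0.85, adjusted p = 8.20e-07). Arrb1, beta-arrestin 1, fell in KD (-0.65, adjusted p = 2.41e-07). Over all genes 11.0% were higher and 10.4% lower in KD, and 17.0% higher and 19.5% lower in OE. With library totals alone as the scale, 0 genes of this list were called higher in OE against WT.

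Genes known to be induced by hypoxia, as Adm and Apln are, were mostly higher in OE. Of 21 genes 20 were tested, and in OE 15 were higher and 1 lower (median log2 fold change 0.59, against 0.002 over all genes). Among all genes 17.0% were higher and 19.5% lower in OE, and 11.0% higher and 10.4% lower in KD. The list also holds the hypoxia-inducible factors, of which Epas1 was among the 15 higher genes and Hif1a was the 1 lower. With a minimum change of 1.5-fold, 8 stayed higher and 0 lower in OE. In KD 1 was higher and 6 lower (median -0.07), and 0 passed the 1.5-fold minimum. Bnip3, a mitophagy receptor, was at 8.01, 7.93 and 6.56 CPM in WT, 6.97, 8.89 and 5.49 in KD, and 21.0, 22.1 and 20.3 in OE. Its OE libraries were the highest, by a log2 fold change of 1.49 (SE 0.10, adjusted p = 5.63e-08). Ddit4, an inhibitor of mTORC1, fell in KD (-0.49, adjusted p = 3.28e-04) and rose 2.16-fold in OE (1.11, adjusted p = 1.06e-09).

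Pdk1, Slc2a1 and Ldha fell in KD and rose in OE. Pdk1, which keeps pyruvate from the mitochondria, went from 35.0 ± 2.49 CPM in WT to 30.5 ± 0.648 in KD (adjusted p = 0.0148) and 68.9 ± 1.59 in OE (log2 fold change 0.97, adjusted p = 2.40e-11). The glucose transporter Slc2a1 went from 100 ± 2.07 CPM to 79.3 ± 4.18 in KD (adjusted p = 1.51e-05) and 171 ± 2.02 in OE (adjusted p = 2.20e-11). Lactate dehydrogenase Ldha went from 974 ± 25.6 CPM to 846 ± 23.0 in KD (adjusted p = 4.68e-04) and 1603 ± 34.5 in OE (adjusted p = 4.42e-12). Vegfa, the endothelial growth factor, was the exception in being higher in both lines, at 125 ± 3.72 CPM in WT, 171 ± 2.61 in KD (adjusted p = 2.01e-07) and 165 ± 7.01 in OE (adjusted p = 2.56e-07). Car9, the carbonic anhydrase often used as a hypoxia marker, fell in KD (-1.39, adjusted p = 0.00316) and was at -0.11 in OE (adjusted p = 0.815).

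The RNA of the hypoxia-inducible factors, which are counted in the same list, moved little. Hif1a was lower in OE by 0.19 on the log2 scale, from 140 ± 12.3 to 122 ± 4.30 CPM (adjusted p = 0.00661). Epas1, which encodes the second alpha subunit, was lower in KD (-0.28, adjusted p = 0.00135) and higher in OE (0.25, adjusted p = 0.00169). Arnt, the shared partner, passed in neither comparison (adjusted p = 0.0621 in KD and 0.0977 in OE). KD and OE were both compared with the same WT libraries, so the 2 sets of differences are not independent of each other.

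**Figure D4:**
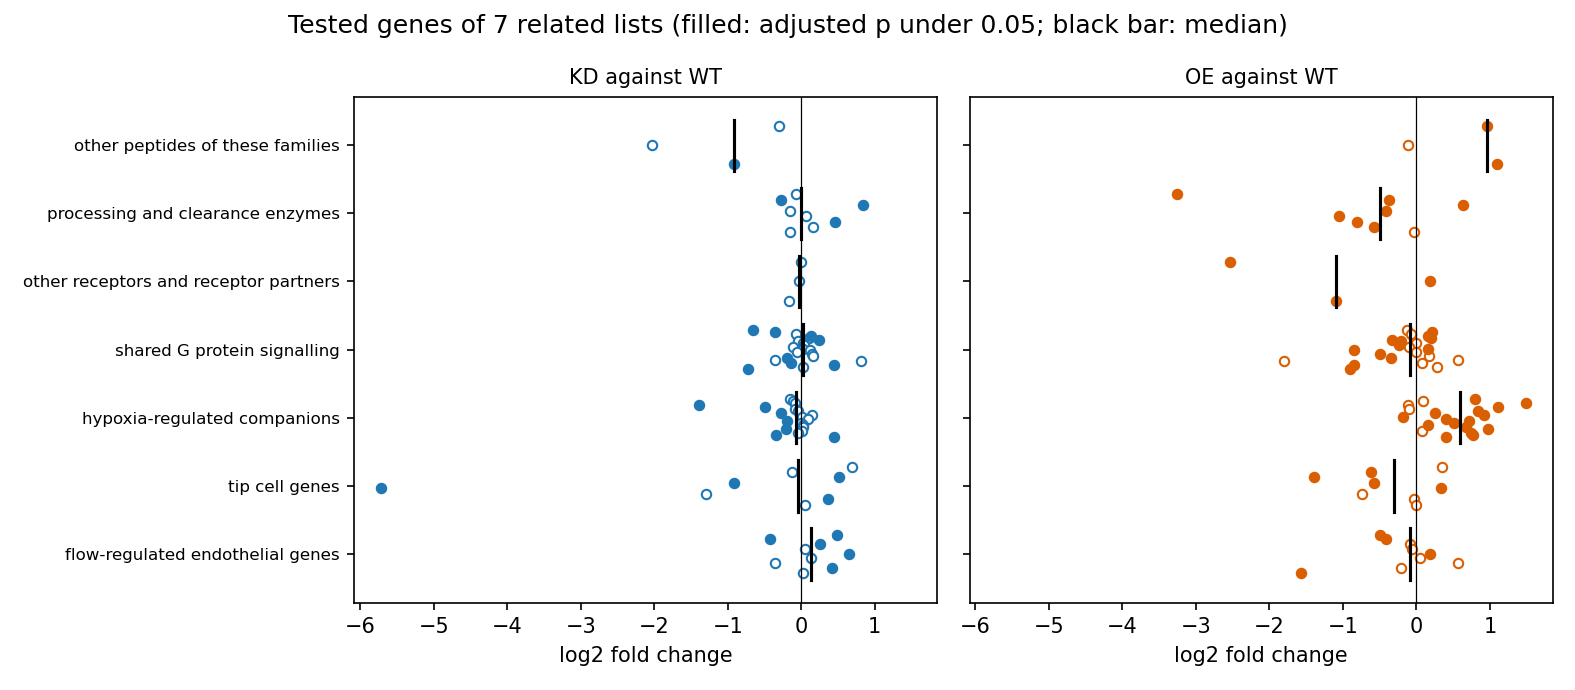
Log2 fold change of the tested genes of 7 related lists in KD (left) and OE (right) against WT; each point is a gene, filled where the adjusted p is under 0.05, and the black bar is the list's median. In OE the hypoxia-regulated list lies mostly right of 0 with a median of 0.59, and the processing enzymes mostly left with a median of -0.50.

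For each gene that differed among the groups, the most similar profiles over the 9 libraries were sought among 9924 tested genes above 5 CPM, by Pearson's correlation of log2 CPM. Ece1 was closest to Pfkm, muscle-type phosphofructokinase (r = 0.988), and Hdac5, a histone deacetylase (0.975), which share its order of WT, OE and KD. Apln was closest to Lsm14b (0.990) and Tent5b (0.983), which were at 72.6 and 6.67 CPM in WT and 82.8 and 10.2 in OE. Adm was closest to Cd63, a tetraspanin (0.949), and Ifrd2 (0.945), which were at 131 and 50.3 CPM in WT and 144 and 55.9 in OE. Calcrl was closest to Gem, a small GTPase (0.974), and Taf5 (0.968), which were at 6.32 and 29.9 CPM in WT and 8.04 and 34.5 in OE. The genes closest to Apln, Adm and Calcrl thus changed by much smaller folds than these members, since the correlation does not measure the size of a change. These are the highest of many values over 9 points in 3 groups, which share their libraries and their depth, and they are given as a description.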

How the data were processed

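RNA-seq was deposited for 9 libraries of MCEC (WT, Zbtb46 KD and Zbtb46 OE, 3 each). Per the labels' protocols, RNA was poly-A selected, primed with random hexamers and read as pairs. The authors deposited whole-number counts per gene and library, not normalised, as judged from the values; the genome build is GRCm38 (mm10) per the submitters' processing notes, and the aligner, counter, use of strand and annotation release are not given in the sources used here. The 55774 rows held 55487 genes after repeated rows of the same gene were counted once.

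Counts were fitted with edgeR 4.0.16 in R 4.3.3: filterByExpr by group (16955 genes), TMM, 1 robust quasi-likelihood model over the 9 libraries, and Benjamini-Hochberg adjustment over all genes tested with a threshold of 0.05. All adjusted p-values in the text are from this test unless another is named. The SE of each log2 fold change rests on the spread of log2 CPM (prior count 2) in both groups (n = 3 each). It is not the error of the edgeR fit that gave the fold change and p. For genes of few counts it is therefore no guide to p. CPM per kilobase uses the merged exon length of GENCODE M21. Totals of 39491828 to 55745849 counts limit the precision of genes under 1 CPM. limma 3.58.1 and DESeq2 1.42.0 served as alternatives, and the fit was tested on simulated data. The lists cover other peptides, enzymes, receptors, G protein signalling, hypoxia-regulated, tip cell and flow-regulated genes. The members and lists were chosen with earlier results of these data known. Named genes are the 10 members; in each list up to 3 genes with the largest called change against WT in KD and in OE and at least 1 CPM in a group; and the 2 closest profiles of each differing member. Other genes of a list are named as its further examples, chosen after their values were seen. One listed gene is counted with its list but not reported here by name.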

Additional observations from a re-analysis of the deposited data

How the results depend on the processing

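The numbers of members called in KD, OE and OE against KD, and among any of the 3 groups, were 1, 3, 4 and 4. With the replicate number as a replicate block they were again 1, 3, 4 and 4. Same-numbered libraries did not deviate together more than others (correlations -0.042 to 0.049, beside -0.061 to 0.042 for pairs with different numbers). The numbers thus gave no sign of a pairing, while a culture or batch shared between groups was not tested. A minimum fold change of 1.5 left 0 in KD, 1 in OE (Apln) and 2 in OE against KD (Apln and Calcrl). Requiring at least 10 counts in every library left 2 members in the test and called 0 in OE, 1 in OE against KD and 1 among any of the 3 groups (Ece1), because the low genes were no longer tested. With 20 Mb window medians removed, 0 members were called in KD, and Ece1 in OE against KD turned to -0.37. Aplnr in OE against KD turned to 0.02 with upper-quartile factors. When single libraries were left out, log2 fold changes that changed sign ran from -0.08 to 0.14 for Edn1 in KD, -0.40 to 0.49 for Adm in KD, -0.78 to 0.07 for Apln in KD and -0.28 to 0.12 for Aplnr in OE against KD; none of these 4 was called. Adm in OE ran from 1.65 to 2.54, Calcrl from 1.37 to 2.02 and Apln from 1.60 to 2.45. With library totals alone, Ece1 in OE against KD was 0.12 and did not pass. Of 90 levels under other scalings, 2 moved beyond 1 SD, both of Ece1 in OE. Apart from the 1.5-fold minimum, the genes of the hypoxia-regulated list called higher in OE numbered 13 to 16 and the enzymes called lower 6. The fit with limma on log2 CPM without window removal was added after seeing the data. With under 70 counts in every library, Adm, Apln, Calcrl, Ramp2, Ramp3 and Aplnr are limited by depth.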

Other observations

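Apln is often counted among the tip cell genes. Of 12 other genes of that list 8 were tested; in KD 2 were higher and 2 lower (median -0.04), and in OE 1 was higher and 3 lower (median -0.30). Over all genes tested, 11.0% were higher and 10.4% lower in KD, and 17.0% higher and 19.5% lower in OE. Igfbp3, an insulin-like growth factor binding protein, was higher in KD (log2 fold change 0.52, adjusted p = 9.33e-09 by edgeR) and lower in OE (-1.39, adjusted p = 5.89e-16). It starts 555 kb from Ramp3, in the region of chromosome 11 that shifted in OE. Its OE value ran from -1.45 to -0.88 over the other settings. The VEGF receptors Kdr and Flt4 were lower in OE (-0.58, adjusted p = 0.0276, and -0.62, adjusted p = 1.06e-09), and Kdr also in KD (-0.91, adjusted p = 0.00261). Nid2, a basement membrane protein, went from 13.1 CPM in WT to 0.251 ± 0.117 in KD (-5.72, adjusted p = 5.09e-14). Esm1, Cxcr4, Dll4 and Kcne3 were too low to test.

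Of 10 flow-regulated endothelial genes 9 were tested. In KD 4 were higher and 1 lower (median 0.13), beside 11.0% and 10.4% over all genes. In OE 1 was higher and 3 lower (median -0.09), beside 17.0% and 19.5% over all genes. Klf4, a factor induced by laminar flow, was higher in KD (0.65, adjusted p = 2.64e-08 by edgeR). Cav1, the caveolar coat protein, was higher in KD (0.48, adjusted p = 2.58e-07) and lower in OE (-0.50, adjusted p = 4.04e-08). Vcam1, a leukocyte adhesion molecule, fell in OE from 72.7 to 24.6 ± 1.06 CPM (-1.57, adjusted p = 2.87e-14), and the chemokine Ccl2 fell in KD and in OE by 0.42 (adjusted p = 4.98e-04 and 2.20e-04).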
